A study of Homo sapiens with 12 samples.

Results

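The genes described here are 10 genes of DNA replication origin recognition and licensing, chosen by name: the origin recognition complex subunits ORC1, ORC2, ORC3, ORC4, ORC5 and ORC6, the loading factors CDC6 and CDT1, the CDT1 inhibitor geminin (GMNN) and the origin-firing kinase CDC7. All 10 were measured, among 18404 genes with a probe set annotated to 1 gene, and each had 1 such probe set. The study hybridised total RNA to 12 Affymetrix ST arrays. The cells were NB4, an established line from a human promyelocytic leukemia, in which all-trans retinoic acid (ATRA) sets off granulocytic maturation. Knockdown cells expressed an shRNA against the long noncoding RNA HOTAIRM1, either shRNA1 (2 arrays per state) or shRNA2 (1 array per state). Control cells carried a scrambled shRNA (2 arrays per state) or were wild type NB4 (1 array per state). Each kind of cell was measured after 96 hours of 0.5 uM ATRA and untreated, which gives 4 arms of 3 arrays.

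The shRNA cells came from lentiviral vectors with a GFP marker, were sorted for GFP and grown from single cells, so a difference between constructs is also a difference between clones. The design text calls the duplicates biological without saying whether they are separate clones or cultures, so the p values cover only the spread among these arrays, which may in part be technical. No probe set used here is annotated to HOTAIRM1, so its knockdown was not checked. MPO, a myeloid peroxidase, lay between 12.67 and 13.81 on the log2 scale over the 12 arrays. The mean log2 level of 8 measured promyelocyte and myeloid markers, MPO among them, lay between 10.40 and 11.51 over all arms. Others of that list were lower, with arm means of 8.93 to 9.12 for ELANE and 7.89 to 10.51 for CTSG. The deposited values carry no detection call, so absence of another lineage's markers could not be called. The mean log2 level of 8 measured lymphoid markers lay between 7.18 and 7.79 over all arms, and that of 5 erythroid and megakaryocyte markers between 7.29 and 7.53. The lymphoid mean hides unlike genes: CD4 lay at 10.16 to 11.80, and CD79A reached 10.9 in an untreated control array. The untreated scrambled replicate 2 array stood apart. TGM2, a transglutaminase induced by retinoic acid, lay at 12.86 there and at 7.93 to 8.30 in the other 5 untreated arrays. ITGAM and ITGAX, also genes of ATRA-induced maturation, lay at 10.16 and 9.95 there. In the other untreated arrays they lay at 7.31 to 8.56 and 7.81 to 8.38. All 3 genes stayed below every ATRA array. This array is part of the untreated control arm, so it enters every control change with ATRA. In that array 9 of the 10 lay above every ATRA array, 3 (ORC1, ORC2 and CDT1) above and 2 (ORC3 and GMNN) below the other untreated arrays.

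Licensing prepares replication origins in late mitosis and G1. ORC binds the DNA and, with CDC6 and CDT1, loads the MCM2 to MCM7 helicase in an inactive double ring. Geminin binds CDT1 in S phase and G2 and blocks further loading, and CDC7, with its activator DBF4, phosphorylates the loaded helicase so that it can fire. Dividing cells express these genes, several of them under E2F transcription factors, and cells that leave the cycle to mature lower CDC6, CDT1 and geminin.

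Because members of the group fell together with ATRA, their promoters were searched for E2F-type words. RefSeq promoter windows (GRCh38.p14, 250 bases before to 50 after the start that the promoter table uses) were found for all 10 genes. That start was the start of the gene record for 9 of them, and for ORC1 it lay 5080 bases inside the record. The E2F-type words were TTTCCCGC, TTTCGCGC, TTTGCCGC and TTTGGCGC on either strand, and at least 1 stood in 3 of the 10 windows (CDC6, CDT1 and ORC3). The same words stood in 3.33% of all 27305 windows of that length and in 4.53% of the 14230 windows of measured genes. CCAAT, the word bound by NF-Y, stood on either strand in 5 of the 10 (ORC1, ORC2, ORC3, ORC6 and CDC6), or 4 of the 9 without ORC1. It stood in 35.7% of all windows and in 36.3% of those of measured genes. TTTGAA, the cell cycle homology region word of genes active in late cycle phases, stood in 0 of the 10. It stood in 15.4% of all windows and in 11.9% of those of measured genes. No E2F-type word overlapped a CCAAT word in these windows. Words were matched exactly, so near matches were not counted. In ORC1 the CCAAT word, read as ATTGG, runs on as ATTGGCGC, 1 letter from the E2F-type word TTTGGCGC. A window without a word says nothing of the factor.

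The windows of the 3 genes with an E2F-type word are printed here, with that of ORC6, the 1 member called between knockdown and control cells after ATRA, a call that was lost in 13 of 23 alternatives. Capitals mark E2F-type words and CCAAT words on either strand, and each run is read 5′ to 3′ along the gene. The CDC6 window lies at chr17:40287629-40287928, plus strand. CDT1's lies at chr16:88803539-88803838, plus strand, ORC3's at chr6:87589885-87590184, plus strand and ORC6's at chr16:46689409-46689708, plus strand.
CDC6: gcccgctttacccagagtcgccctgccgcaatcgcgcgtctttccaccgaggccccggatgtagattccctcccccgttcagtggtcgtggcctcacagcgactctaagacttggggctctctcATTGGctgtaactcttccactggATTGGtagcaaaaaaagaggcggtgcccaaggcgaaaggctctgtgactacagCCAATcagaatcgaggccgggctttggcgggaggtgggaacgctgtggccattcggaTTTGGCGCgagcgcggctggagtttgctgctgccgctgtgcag
CDT1: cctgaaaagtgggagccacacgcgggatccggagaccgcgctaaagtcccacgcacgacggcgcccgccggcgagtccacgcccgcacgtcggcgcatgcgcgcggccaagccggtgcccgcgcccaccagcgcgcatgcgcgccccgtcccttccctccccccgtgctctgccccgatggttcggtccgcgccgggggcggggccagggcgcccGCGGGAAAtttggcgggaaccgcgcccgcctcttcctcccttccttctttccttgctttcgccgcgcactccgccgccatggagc
ORC3: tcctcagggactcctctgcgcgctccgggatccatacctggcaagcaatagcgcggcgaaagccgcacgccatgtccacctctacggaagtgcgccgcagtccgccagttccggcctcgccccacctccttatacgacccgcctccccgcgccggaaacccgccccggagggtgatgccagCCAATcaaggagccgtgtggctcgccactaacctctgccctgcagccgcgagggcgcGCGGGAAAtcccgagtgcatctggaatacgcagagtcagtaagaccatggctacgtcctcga
ORC6: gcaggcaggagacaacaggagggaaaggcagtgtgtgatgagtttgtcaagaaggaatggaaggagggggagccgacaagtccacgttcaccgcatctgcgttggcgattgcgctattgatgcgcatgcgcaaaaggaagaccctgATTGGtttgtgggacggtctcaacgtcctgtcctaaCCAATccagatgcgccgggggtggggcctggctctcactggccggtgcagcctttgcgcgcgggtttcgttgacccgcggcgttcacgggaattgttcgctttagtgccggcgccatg

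With ATRA most of the licensing genes fell, both in knockdown and in control cells. In knockdown cells 7 of 10 fell, against 14.7% of all genes tested (limma, adjusted p under 0.05), with a median log2 change of -0.51 over the 10 and -0.03 over all genes. In control cells 9 of 10 fell, against 20.9% of all genes, with a median of -0.83 over the 10 and 0.05 over all genes. No member rose in either. The 3 ATRA arrays lay below the 3 untreated arrays for 7 genes in knockdown cells and for 9 in control cells, where 24.6% and 23.4% of all genes did so. These are RNA levels of bulk cells, so fewer cycling cells and less of an RNA in each cell cannot be told apart. Below, array values are log2 levels in the order shRNA1 replicate 1, shRNA1 replicate 2, shRNA2 for knockdown cells and scrambled replicate 1, scrambled replicate 2, wild type for control cells.

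**Figure D1:**
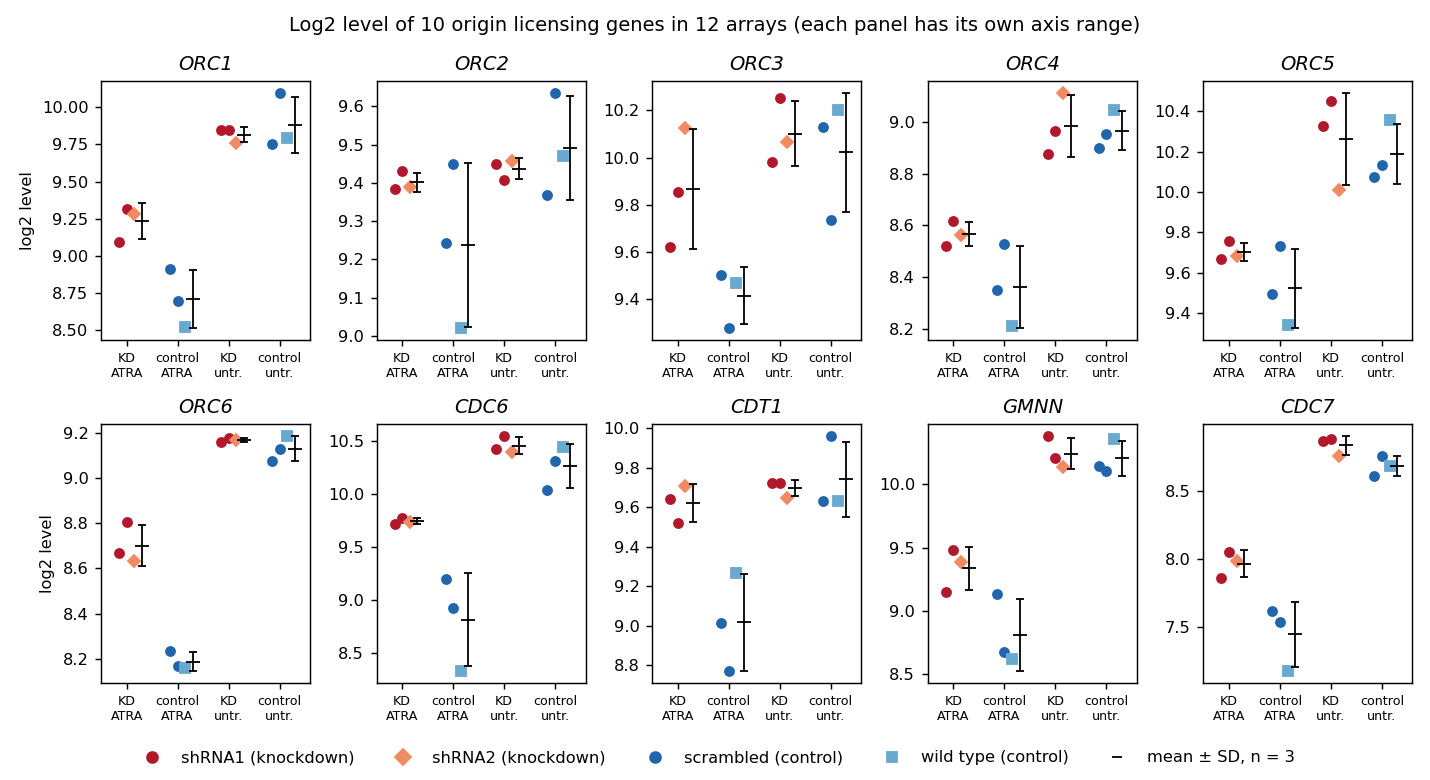
Log2 level (y axis, its own range in each panel) of the 10 genes in the 12 arrays, by arm, with the mean ± SD of 3 arrays in black. After ATRA the knockdown arrays lie above all control arrays for 7 genes, and the untreated arms overlap for all 10.

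CDC6, the ATPase that joins ORC on the origin to load the helicase, had the largest control change of the 10. After ATRA it lay at 9.72, 9.78 and 9.74 in knockdown cells, against 9.20, 8.92 and 8.33 in control cells. Untreated, it lay at 10.43, 10.55 and 10.40 in knockdown cells, against 10.04, 10.32 and 10.45 in control cells. The ATRA arrays thus lay below the untreated arrays in both kinds of cells, and the knockdown arrays after ATRA were tightly grouped above a wide control arm. CDC6 fell by 0.71 on the log2 scale in knockdown cells (SE 0.18, adjusted p = 0.0117, limma) and by 1.45 in control cells (SE 0.18, adjusted p = 0.000168). The control fall ranged from 0.84 in the scrambled replicate 1 pair to 2.12 in the wild type pair, while the knockdown pairs lay between -0.77 and -0.66.

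CDT1, the partner of CDC6 in helicase loading, fell in control cells alone as far as the test called it. After ATRA it lay at 9.64, 9.52 and 9.71 in knockdown cells, against 9.01, 8.77 and 9.26 in control cells. Untreated, it lay at 9.72, 9.72 and 9.65 in knockdown cells, against 9.63, 9.96 and 9.63 in control cells. The knockdown arrays with and without ATRA overlapped, and the control arrays did not. The change was -0.07 in knockdown cells (95% interval -0.35 to 0.20, adjusted p = 0.738) and CDT1 fell by 0.73 in control cells (SE 0.12, adjusted p = 0.00104). The wild type pair changed least among control cells (-0.37) and the scrambled replicate 2 pair most (-1.19), whereas for CDC6 the wild type pair had changed most.

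GMNN, which encodes the CDT1 inhibitor geminin, fell in both. After ATRA it lay at 9.14, 9.48 and 9.38 in knockdown cells, against 9.13, 8.67 and 8.62 in control cells. Untreated, it lay at 10.38, 10.21 and 10.14 in knockdown cells, against 10.15, 10.11 and 10.36 in control cells. Every ATRA array was below every untreated array. The fall was 1.88-fold in knockdown cells (adjusted p = 0.000993) and 2.64-fold in control cells (adjusted p = 7.43e-05). GMNN fell further than CDT1 in all 6 pairs of arrays, with a log2 change of CDT1 minus that of GMNN of 0.53 to 1.16 in knockdown pairs and 0.25 to 1.38 in control pairs. This is given as a description of unequal change within an array, with the pair of genes picked after their values were seen.

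Among the ORC subunits, ORC1 and ORC6 had the largest changes in control cells. ORC1 is the subunit whose protein is cyclically degraded in human cells, and ORC6 the smallest subunit, the least similar to the others. After ATRA ORC1 lay at 9.09, 9.32 and 9.28 in knockdown cells, against 8.91, 8.70 and 8.52 in control cells. Untreated, ORC1 lay at 9.85, 9.84 and 9.76 in knockdown cells, against 9.75, 10.10 and 9.79 in control cells. The order was the same as for CDC6, with both ATRA arms below the untreated arrays and the knockdown arm the higher of the 2. ORC1 fell by 0.59 in knockdown cells (SE 0.12, adjusted p = 0.00362) and by 1.17 in control cells (SE 0.12, adjusted p = 7.21e-05).

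ORC6 varied little within an arm, with SDs of 0.01 to 0.09 on the log2 scale over the 4 arms. After ATRA it lay at 8.67, 8.80 and 8.63 in knockdown cells, against 8.24, 8.17 and 8.16 in control cells. Untreated, it lay at 9.16, 9.18 and 9.17 in knockdown cells, against 9.08, 9.13 and 9.19 in control cells. The 2 ATRA arms were separated by more than the range of either. ORC6 fell by 0.47 in knockdown cells (SE 0.07, adjusted p = 0.00075) and by 0.94 in control cells (SE 0.07, adjusted p = 2.87e-05).

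ORC2, a subunit of the ORC core, was called in neither kind of cell. After ATRA it lay at 9.38, 9.43 and 9.39 in knockdown cells, against 9.24, 9.45 and 9.02 in control cells. Untreated, it lay at 9.45, 9.41 and 9.46 in knockdown cells, against 9.37, 9.64 and 9.47 in control cells. The arms with and without ATRA overlapped in both. The change was -0.04 in knockdown cells (95% interval -0.26 to 0.19, adjusted p = 0.854) and -0.25 in control cells (-0.48 to -0.03, adjusted p = 0.0753). The control change depended on single arrays: it was -0.36 and called without the ATRA scrambled replicate 2 array (adjusted p = 0.0171), and -0.14 without the ATRA wild type array (0.278). After quantile normalization it was -0.08 (0.596). ORC1 fell further than ORC2 in all 6 pairs, by 0.41 to 0.69 in knockdown pairs and 0.71 to 1.22 in control pairs, again a description of genes picked on their values.

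The remaining core subunits had log2 changes of -0.67 to -0.60 in control cells. ORC3 lay at 9.62, 9.85 and 10.13 in knockdown cells after ATRA, against 9.50, 9.28 and 9.47 in control cells. Untreated, ORC3 lay at 9.98, 10.25 and 10.07 in knockdown cells, against 10.13, 9.73 and 10.20 in control cells. Its knockdown change was -0.23 (95% interval -0.56 to 0.09, adjusted p = 0.301), with the shRNA2 pair at 0.06, and it fell by 0.61 in control cells (SE 0.15, adjusted p = 0.00781). ORC4 and ORC5, subunits with an AAA+ ATPase fold, fell in both. ORC4 had log2 levels of 8.52 to 8.62 in knockdown cells after ATRA, against 8.88 to 9.11 untreated, and of 8.21 to 8.53 in control cells after ATRA, against 8.90 to 9.05 untreated. It fell by 0.42 in knockdown cells (adjusted p = 0.00651) and by 0.60 in control cells (adjusted p = 0.000547). ORC5 had 9.67 to 9.76 in knockdown cells after ATRA, against 10.01 to 10.45 untreated, and 9.34 to 9.73 in control cells after ATRA, against 10.08 to 10.36 untreated. It fell by 0.56 in knockdown cells (adjusted p = 0.00757) and by 0.67 in control cells (adjusted p = 0.00204).

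CDC7, the kinase that triggers loaded helicases, fell in both kinds of cells. After ATRA it lay at 7.86, 8.05 and 7.98 in knockdown cells, against 7.62, 7.54 and 7.17 in control cells. Untreated, it lay at 8.87, 8.88 and 8.75 in knockdown cells, against 8.61, 8.75 and 8.68 in control cells. The wild type ATRA array was the lowest of the 12, and no ATRA array reached an untreated one. The fall was 1.83-fold in knockdown cells (adjusted p = 0.000415) and 2.36-fold in control cells (adjusted p = 4.54e-05). DBF4, an activating subunit of CDC7, had a log2 change of -0.63 in knockdown cells (adjusted p = 0.0388) and -0.18 in control cells, where it was not called (adjusted p = 0.489). DBF4 was dim, with arm means of 6.31 to 6.93, below the array medians of 7.73 to 7.81, and was picked after its values were seen. The related DBF4B, also picked so, was brighter (arm means of 8.2 to 8.9) and went the other way. Its log2 change was -0.25 in knockdown cells, not called (limma, adjusted p = 0.219), and -0.51 in control cells (adjusted p = 0.0128).

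**Figure D2:**
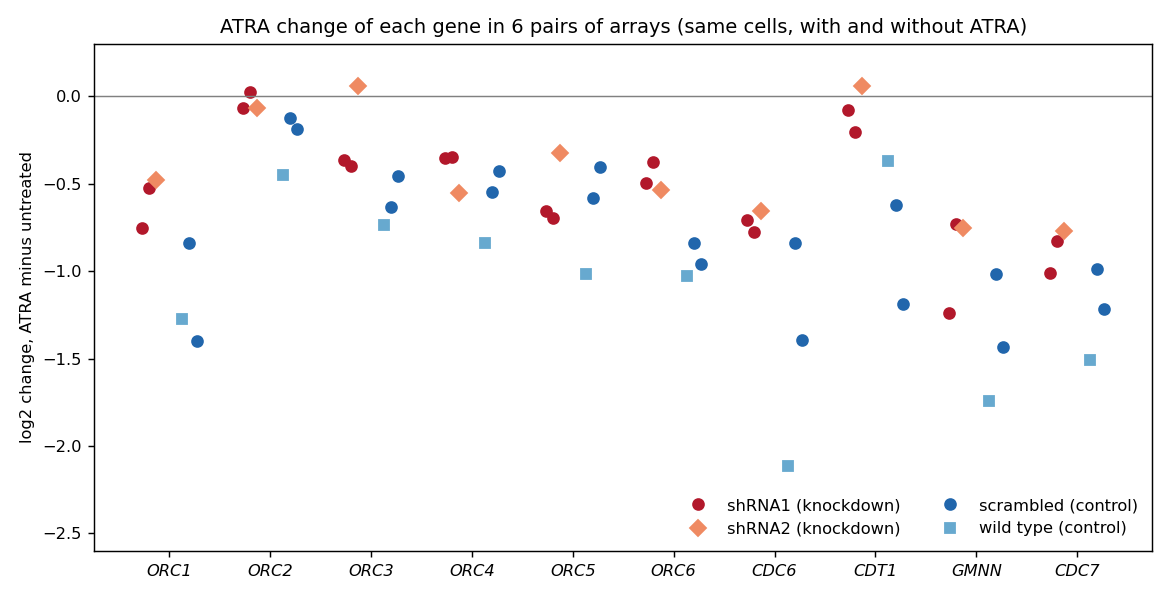
Log2 change with ATRA (y axis) of each gene in 6 pairs of arrays, 3 of knockdown cells on the left of each gene and 3 of control cells on the right. For 6 genes (ORC1, ORC2, ORC3, ORC6, CDC6 and CDT1) the 3 knockdown changes lie above the 3 control changes.

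Between knockdown and control cells after ATRA all 10 differences were above 0, with a median of 0.52 on the log2 scale against -0.03 over all genes, but only ORC6 was called higher. That is 1 of 10, against 0.0543% of all genes. ORC6 was 1.43-fold higher in knockdown cells (log2 difference 0.51, SE 0.07, adjusted p = 0.0362). Another 6 had an adjusted p between 0.0539 and 0.0907: CDC6 at a difference of 0.93 (95% interval 0.54 to 1.32), CDT1 at 0.61 (0.33 to 0.88), GMNN at 0.53 (0.22 to 0.84), CDC7 at 0.52 (0.28 to 0.76), ORC1 at 0.52 (0.27 to 0.78) and ORC3 at 0.45 (0.13 to 0.77). Such adjusted p values were common over all genes: by p, CDC6 ranked 75 and ORC3 2024 of 18404. The adjustment gave 0.0539 alike to CDC6, CDT1, CDC7 and ORC1, at ranks 75 to 274. ORC2, ORC4 and ORC5 had differences of 0.16 to 0.20, with adjusted p values of 0.175 to 0.364, and values between 0.04 and 0.29 over the alternatives.

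Without adjustment, 8 of 10 had a p under 0.05 and a difference above 0, against 2212 of 18404 genes (12%), and for 7 the knockdown arrays lay wholly above the control arrays, against 14.3% of all genes. An exact permutation test of 3 arrays against 3 cannot give a two-sided p below 0.1. Over all genes 10 were called higher and 1 lower. This split was 138 and 142 after quantile normalization and 249 and 108 with array medians made equal. The mean log2 level of TGM2, ITGAM, ITGAX and CYP26A1, genes of ATRA-induced maturation, was 10.38 to 10.52 in the knockdown arrays after ATRA, against 10.70 to 10.86 in the control arrays. TGM2, ITGAM and ITGAX rose with ATRA in knockdown and control cells, and CYP26A1 was called in neither. Knockdown minus control cells gave log2 differences of -0.53 to -0.21 for the 4 after ATRA, none of them called, and the part of maturation in the licensing difference was not tested.

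The ORC6 call was close to the threshold. It ended without the ATRA array of wild type (0.50, adjusted p = 0.0524), scrambled replicate 2 (0.50, 0.123), shRNA1 replicate 1 (0.53, 0.0953), shRNA1 replicate 2 (0.46, 0.127) or shRNA2 (0.55, 0.0957). It also ended at an unaltered difference without the untreated array of wild type (0.0701), shRNA1 replicate 1 (0.0746) or shRNA1 replicate 2 (0.0691). Without the untreated scrambled replicate 2 array, the one that stood apart, 5 of the 10 were called: ORC1 (adjusted p = 0.0409), CDC6 (0.0409), CDT1 (0.0396), CDC7 (0.0432) and ORC6. Over all 18404 genes that setting called 420 higher and 281 lower. Without the ATRA scrambled replicate 1 array 3 were called, with CDC6 at 1.12 (0.0323), GMNN at 0.69 (0.0484) and ORC6. Over all genes 66 were then called higher and 12 lower.

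**Figure D3:**
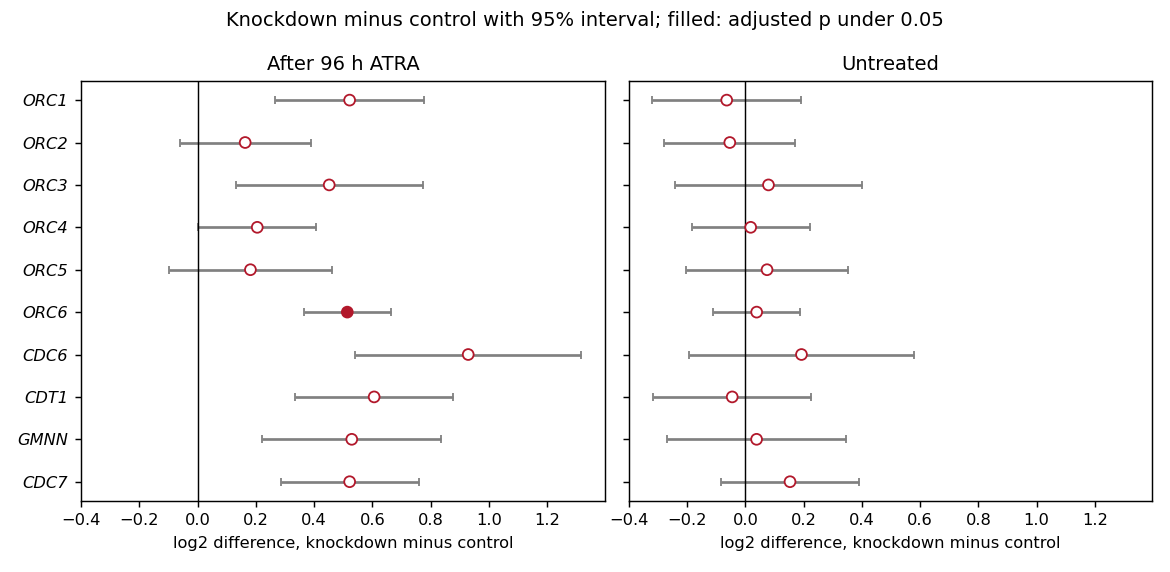
Log2 difference of knockdown minus control cells (x axis) with its 95% interval from the fit, after ATRA on the left and untreated on the right. After ATRA all 10 points lie above 0 and ORC6 is the 1 called, and untreated the points lie between -0.06 and 0.19 with every interval spanning 0.

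The constructs were also set side by side. After ATRA shRNA1 minus scrambled cells gave a log2 difference of 0.69 for CDC6, 0.69 for CDT1 and 0.53 for ORC6, and shRNA2 minus wild type cells gave 1.41, 0.44 and 0.47. All 10 genes were above 0 in both, with ORC2 the lowest for shRNA1 (0.06) and ORC5 the lowest for shRNA2 (0.34). The controls are unlike, since shRNA2 was set against wild type cells, which carried no scrambled shRNA. Scrambled minus wild type after ATRA was 0.33 for ORC2 and 0.27 for ORC5, but -0.08 for ORC3. The sizes of the 2 comparisons are therefore not like for like. The shRNAs differed by 0.13 or less from each other for 9 genes after ATRA, and by -0.39 for ORC3 (shRNA1 minus shRNA2). The control cells lay further apart than the shRNA cells for 8 genes (not ORC3 or ORC6): scrambled minus wild type was 0.73 for CDC6, above the shRNA1 difference, and -0.37 for CDT1. With 1 array of shRNA2 and of wild type in each state, these values have no replicate check.

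Before ATRA no member was called between knockdown and control cells, 0 of 10, against 0% of all genes (limma, smallest adjusted p = 0.999; 727 of 18404 genes and 0 members had an unadjusted p under 0.05). The differences ran from -0.06 for ORC1 to 0.19 for CDC6, 7 of them above 0 in the fit as reported, and the 95% interval for CDC6 was -0.19 to 0.58. For ORC6 the interval was -0.11 to 0.19. Its differences before and after ATRA are compared by the difference between the ATRA responses, given next, which was not called.

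The difference between the ATRA responses was above 0 for all 10 genes in the fit as reported, meaning a less negative change in knockdown cells, and none was called. That is 0 of 10, against 0% of all genes (limma, smallest adjusted p = 0.271, which ORC1, ORC6 and CDT1 had). Many genes shared that value. By p, ORC6 ranked 18, CDT1 192 and ORC1 258 of 18404, and WDHD1, at rank 631, had the same adjusted value. Over all genes 2815 had an unadjusted p under 0.05 in either direction. ORC6 had a difference of 0.47 (95% interval 0.26 to 0.69), CDT1 0.65 (0.27 to 1.03), ORC1 0.59 (0.23 to 0.95) and CDC6 0.74 (0.19 to 1.28). ORC5 had the smallest, 0.11 (-0.29 to 0.50), and was below 0 in 5 of 23 alternatives, down to -0.19 with scrambled and shRNA1 arrays alone. The same setting gave 0.38 for CDC6, which was 0.40 without both wild type arrays, and CDT1 was 0.42 without both arrays of scrambled replicate 2. Unadjusted, 6 of 10 had a p under 0.05, against 5.71% of all genes that were higher at this level. Changes per pair were above those of control cells in all 3 knockdown pairs for 6 of 10 genes, against 9.16% of all genes. This comparison and the one after ATRA share arrays, so they are not separate evidence.

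Related genes were counted from 3 lists, with the same background shares as above. The genes named are the 4 of each list with the smallest p between knockdown and control cells after ATRA, so a smaller fall in knockdown cells is built into that choice and is no result for them. Of the 6 MCM2 to MCM7 genes, the helicase that licensing loads, 5 fell with ATRA in knockdown cells and all 6 in control cells, with medians of -0.57 and -1.10. MCM5 was the exception in knockdown cells (-0.22, adjusted p = 0.347), against a fall of 0.85 in control cells (adjusted p = 0.00142). MCM6 fell by 0.79 in knockdown cells (adjusted p = 0.00444) and by 1.51 in control cells (adjusted p = 9.58e-05). MCM2 and MCM7 fell by 0.48 to 0.49 in knockdown cells and by 1.07 to 1.10 in control cells.

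Of 14 genes of origin firing and helicase activation, 12 fell in knockdown cells and 12 in control cells, with medians of -0.60 and -1.02. GINS3, a subunit of the active helicase, fell by 0.83 in knockdown cells (adjusted p = 0.000595) and by 1.44 in control cells (adjusted p = 3.7e-05). CDC45, its other cofactor, fell by 0.63 in knockdown cells (adjusted p = 0.0169) and by 1.19 in control cells (adjusted p = 0.000316). WDHD1, which links helicase and polymerase alpha, fell by 0.63 and MTBP, a partner of the firing factor Treslin, fell by 0.35 in knockdown cells, and they fell by 1.20 and 0.64 in control cells.

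Of the 22 measured genes that control licensing factors (24 listed), 14 fell in knockdown cells and 20 in control cells, with medians of -0.46 and -0.77. DTL, the substrate receptor of the ubiquitin ligase that destroys CDT1 in S phase, changed by -0.40 in knockdown cells (adjusted p = 0.0714) and fell by 1.21 in control cells (adjusted p = 0.000163). The transcription factor E2F1 changed by -0.27 in knockdown cells (adjusted p = 0.107) and fell by 0.73 in control cells (adjusted p = 0.000512). SKP2 and CDK1 of this list, picked after their values were seen, had close values in both kinds of cells. SKP2, a receptor of another ligase that targets CDT1, fell by 0.84 in knockdown cells and by 0.89 in control cells, and the mitotic kinase CDK1 fell by 0.76 in knockdown cells and by 0.72 in control cells. CDK2 and FBXO5 were, like DTL and E2F1, named by the rule of smallest p. CDK2, the kinase whose activity blocks relicensing, fell by 0.54 in knockdown cells and by 0.83 in control cells. FBXO5, an inhibitor of the ligase that degrades geminin, fell by 0.47 in knockdown cells and by 0.76 in control cells. Between knockdown and control cells after ATRA, 0 of the 6, 0 of the 14 and 0 of the 22 were called in either direction, with median differences of 0.58, 0.50 and 0.27. Unadjusted, 6 of the 6, 11 of the 14 and 10 of the 22 had a p under 0.05 and a difference above 0. The closest were DTL at 0.83 and GINS3 at 0.66 (adjusted p = 0.0506 each).

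**Figure D4:**
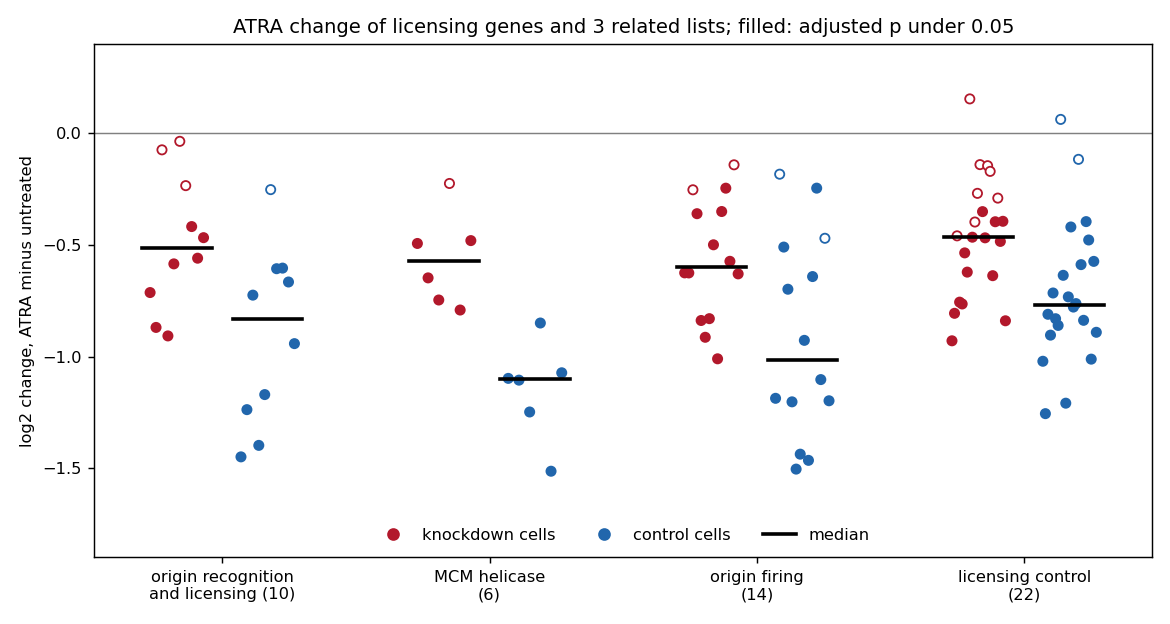
Log2 change with ATRA (y axis) of each gene of 4 lists in knockdown cells (red) and control cells (blue), with medians as black bars and filled points for an adjusted p under 0.05. The knockdown median lies above the control median in each list, at -0.51 and -0.83 for the 10 licensing genes.

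Across the 12 arrays, treated and untreated together, the levels of the licensing genes went together. Pearson's r over the 45 pairs of members had a median of 0.832, from 0.344 for ORC2 with ORC3 to 0.979 for GMNN with CDC7. After each arm's mean was taken away the median was 0.307, with 0.882 for CDC6 with CDC7 and -0.683 for ORC4 with CDT1. CDT1 had a negative r with 8 of the other 9 within arms. The points share labelling and normalization, and r is given as a description. By the same measure, the genes outside the group with the most similar levels over 12 arrays were POLQ and CTCF for ORC1 (r 0.992 and 0.990), WDHD1 and SRSF7 for CDC6 (0.987 and 0.984), H2BC9 and FANCI for CDT1 (0.970 and 0.965) and SMPD4 and CHEK1 for GMNN (0.989 and 0.988). For CDC7 they were RAE1 and EXOSC10 (0.992 and 0.991), and for ORC6 UQCC3 and UCKL1 (0.988 each). The core subunits had DKC1 and KPNA1 (ORC4, 0.991 each), ARMC10 and OSBPL5 (ORC5, 0.974 and 0.972), TBPL1 and SLC35E1 (ORC3, 0.967 and 0.948), and PRP4K and SMC5 (ORC2, 0.958 and 0.956). H2BC9 belongs to a histone family of shared sequence, where probes can bind several members.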

How the data were processed

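Total RNA was labelled as biotinylated cDNA for Affymetrix ST arrays, per the labels' protocols. The authors deposited log2 values of 32321 probe sets, with RMA and limma named, without versions or settings, per the submitters' processing notes. The genome build is not given in the sources used here. The lowest value was 2.67 and the highest 14.63. Medians of arrays lay at 7.73 to 7.81. No filter was applied. The number of arrays limits the precision. Within an arm r across genes was 0.979 to 0.995, and at most 8 values were identical in a pair of arrays.

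Probe sets annotated to 1 gene (19158) gave 18404 genes, with the set of highest mean kept where a gene had several. Probe sets with several genes (1388) or none listed (11775) were left out. The test was limma 3.58.1 (R 4.3.3; lmFit on 4 arm means, eBayes defaults, 8 residual degrees of freedom, no line term), two-sided, with Benjamini-Hochberg adjustment over all genes and a threshold of 0.05. Each difference is treated minus untreated or knockdown minus control. SEs and 95% intervals are those of the moderated fit. The test was checked on simulated arrays with independent noise and no effect of ATRA, line or clone, so that check does not cover such effects. The members, lists and rules were chosen with earlier results of these data known. Named genes were all members, up to 4 genes of each related list with the smallest p for knockdown against control after ATRA, and the 2 genes most correlated with each member. DBF4 and the genes named beside that rule were picked after their values were seen.

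Untreated and ATRA arrays were paired by cell line and replicate number, as the labels give them. Within pairs, deviations from arm means correlated at -0.17 to 0.23 across genes. Line cannot be a term in the comparison of knockdown with control, since each line is 1 or the other. Alternatives were a block by pair, 2 other normalizations, no dim genes, the mean of probe sets, trended and robust variances, array weights, fewer samples, and each array left out.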

Additional observations from a re-analysis of the deposited data

How the results depend on the processing

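Over 24 alternatives, members called lower with ATRA numbered 5 to 7 in knockdown cells and 8 to 10 in control cells. With the line pair as a replicate block they were 7 in knockdown cells and 9 in control cells, as without it, 0 members had a called difference in response, and no member's call changed. No member was called before ATRA or for the difference in response under any of 23 alternatives. Members called higher in knockdown cells after ATRA numbered 1 as reported, 3 after quantile normalization, 5 with equal array medians, 5 with array weights, and 0 with scrambled and shRNA1 arrays alone or with the 2 arms alone in the fit. Leaving out 1 array gave 0 to 5. Alternatives added after seeing the data, without both arrays of scrambled replicate 2, of wild type or of shRNA2, gave 0 each. All genes called in that comparison numbered 10 higher and 1 lower, against 138 and 142 (quantile), 249 and 108 (equal medians), 383 and 313 (array weights), 44 and 19 without the dimmest genes, and 420 and 281 without the untreated scrambled replicate 2 array. In 11 of the 23 alternatives no gene was called. Genes called higher with ATRA in control cells numbered 2800, and 763 to 4450 over the alternatives. The cause was not tested. No member changed sign in any alternative with ATRA or between knockdown and control cells after ATRA. For the difference in response 5 of 230 values changed sign (all ORC5), and for knockdown against control cells before ATRA 21 of 230 did. Without both wild type arrays the control change of ORC3 was -0.54 (adjusted p = 0.0666), and without both shRNA2 arrays the knockdown changes of ORC4 and CDC6 were -0.35 (0.074) and -0.74 (0.073).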
